A study of Solanum lycopersicum with 12 samples.

Results

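The leaf response of tomato (Solanum lycopersicum) to cadmium (Cd) was measured by comparing the 3 arrays titled as Cd-treated leaf with the 3 titled as leaf control, which are 6 of the 12 arrays of the series. The other arrays hold 3 Cd-treated and 3 control root samples. Each sample was hybridised to its own single-colour Affymetrix tomato array, and 10038 of the 10209 probe sets on it are not controls and were tested. Agent and organ define the groups: leaf with Cd, leaf without Cd, root with Cd and root without Cd. The labels give no dose, duration, cultivar or plant age, and they do not say whether arrays of a group came from separate plants, so the p-values reflect no more than the variation among these arrays, possibly technical in part or in whole. The source label of the 3 Cd-titled leaf arrays reads as untreated and contradicts their title. Groups follow the titles, and every leaf difference below carries that contradiction. The number of arrays limits the precision.

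Cadmium is a non-essential metal that plants take up through transporters of iron, zinc and manganese. It binds thiol groups, displaces other metals from proteins, and is chelated in the cell by glutathione, phytochelatins and metallothioneins. In leaves, Cd exposure is known for chlorosis, reduced growth and oxidative stress, and the hormone ethylene takes part in many stress responses of tomato leaves.

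Expression is given as log2 of the deposited signal, so a difference of 1 is a 2-fold change. Array medians lay between 6.85 and 6.88 in leaf Cd and between 6.88 and 6.89 in leaf control arrays. Leaf Cd arrays correlated with each other at 0.960 to 0.976, leaf controls at 0.981 to 0.986, and arrays of the 2 groups at 0.950 to 0.971. Leaf Cd array 3 stood apart, with a quality weight of 0.155, and it correlated at a mean of 0.963 with the other leaf Cd arrays, against 0.964 with the controls. The 8 genes of photosynthesis used as markers of green tissue were above background on every leaf and every root array, where background is the highest negative control probe set of an array. The log2 of their summed signal lay between 14.81 and 15.05 in leaf Cd arrays, between 15.12 and 15.24 in leaf controls, between 13.43 and 13.99 in root Cd arrays and between 14.10 and 15.02 in root controls. Leaf Cd and root control arrays overlapped in these deposited levels. However, array medians were higher in root controls, at 7.46 to 7.49, and the levels were not adjusted for this. The overlap therefore does not settle whether these markers tell the organs apart. Of 5 genes used as root markers, the extensin ext1 and the phosphate transporter PT2 were above background on no leaf array, FRO1 and AMT1-2 were above it on all leaf arrays, and FER was above it on 1 of the 3 leaf Cd arrays and 0 of the 3 leaf control arrays. The log2 of their summed signal lay between 8.54 and 8.94 in leaf Cd arrays and between 8.43 and 9.42 in leaf controls, below the range of 11.29 to 11.51 in root Cd arrays and 10.74 to 10.95 in root controls. Whether tissue mixture had a part in any result was not tested.

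In leaves, 379 of 10038 probe sets passed an adjusted p of 0.05 (limma, Benjamini-Hochberg over all probe sets), which is 3.78%. Of these, 224 were higher with Cd (2.23% of all probe sets) and 155 were lower (1.54%). Changes of at least 2-fold made up 93 of the rises and 114 of the falls. In all 379 the Cd and control values did not overlap, as was the case for 21.7% of all probe sets. The median difference over all probe sets was 0.02. Because 334 of the 379 have no gene symbol, the account that follows describes 801 named genes, of which 22 rose and 19 fell, or 5.12%. The count was 589 without leaf Cd array 3 (5.87%, with 3.17% higher and 2.7% lower), 127 without control array 2 and 179 without control array 3, and it was 65 when the 6 leaf arrays were fitted without the root arrays. A bulk measurement cannot tell fewer cells of a type from less RNA per cell.

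**Figure D1:**
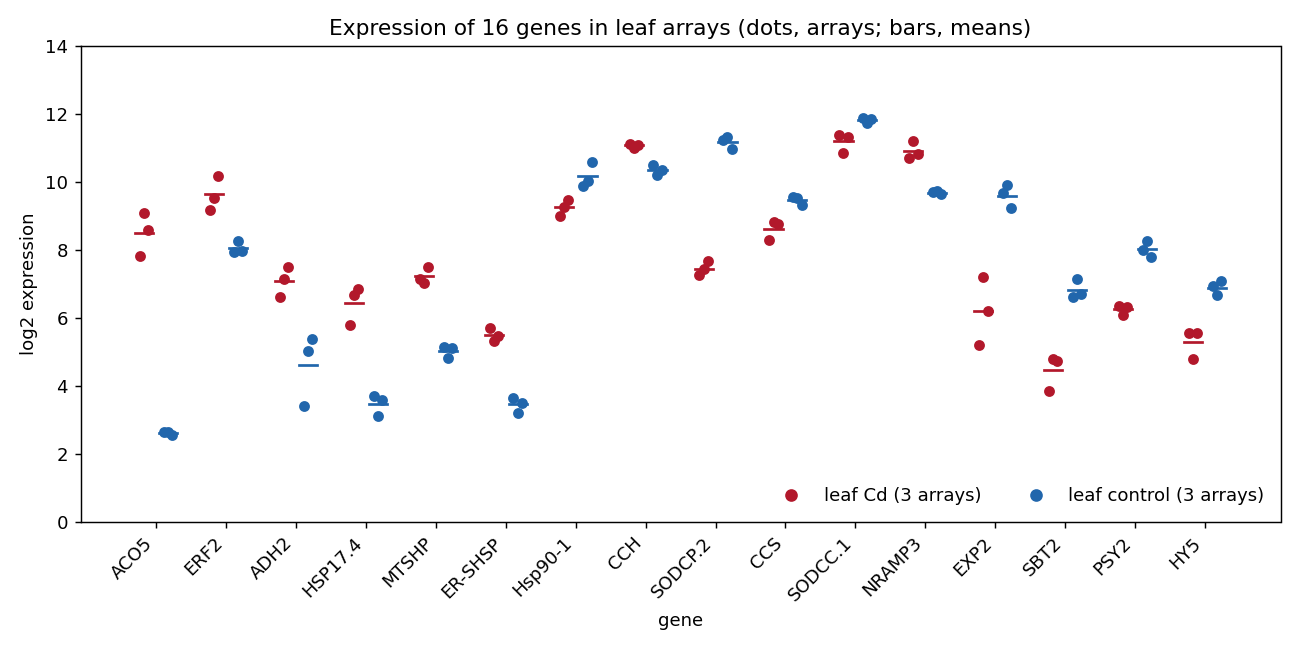
Log2 expression (vertical axis) of 16 genes in the 3 leaf Cd arrays (red, left of each pair) and the 3 leaf control arrays (blue, right); dots are arrays and bars are means. ACO5 lies at 8.49 with Cd and near 2.61 in controls, and SODCP.2 lies at 7.45 with Cd and 11.18 in controls.

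ACO5, an ACC oxidase that catalyses the last step of ethylene synthesis, had the largest rise among the named genes. It read 7.80, 9.08 and 8.58 in leaf Cd arrays, against 2.64, 2.65 and 2.55 in leaf controls. All 3 control values were not above background and all 3 Cd values lay far above them, a difference of at least 50.2-fold (adjusted p 2.99e-05, limma). No other of the 11 ethylene synthesis genes passed the threshold, and the median difference of the list was 0.07. ACO4 had 10.06, 10.23 and 10.38 with Cd, against 10.92, 10.66 and 10.46 in controls, which gave -0.45 ± 0.24 (SE, adjusted p 0.350, limma). ACS7 and ACS8, members of the ACC synthase family that makes the precursor of ethylene, were not above background on any leaf array.

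Of 14 genes of ethylene perception and signalling, only the receptor gene ETR5 passed the threshold. It had 5.55, 5.85 and 6.22 in leaf Cd arrays, against 6.58, 6.68 and 6.46 in controls, and fell by 0.70 on the log2 scale (SE 0.17, adjusted p 0.0458, limma). The ETR5 call was lost under 11 of 14 other settings, with adjusted p-values up to 0.205, among them the paired fit (0.0790), the 6 leaf arrays alone (0.190) and the removal of any single leaf array other than leaf Cd 3. Without leaf Cd array 3 the list had 4 members past the threshold, 2 higher and 2 lower, where 5.87% of all probe sets passed. ETR4, another receptor gene, had 6.62, 5.39 and 6.78 with Cd, against 7.49, 7.45 and 7.23 in controls, without overlap but with an adjusted p of 0.0864 (limma).

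Among 15 ERF and DREB genes, transcription factors of the AP2 family that act in ethylene and stress responses, 2 rose and 1 fell, with a list median of -0.05. ERF2 had 9.18, 9.53 and 10.18 in leaf Cd arrays, against 7.93, 8.26 and 7.96 in controls, a rise of 1.58 ± 0.24 (adjusted p 0.00682, limma). DREB3 had 8.11, 7.91 and 8.10 with Cd, against 7.18, 7.19 and 7.22 in controls, and rose by 0.84 ± 0.14 (adjusted p 0.00899, limma). The control values of DREB3 were almost identical, and those of ERF2 lay within a narrow band below every Cd value. Both calls were lost with the 6 leaf arrays alone, at adjusted p-values of 0.0686 for ERF2 and 0.0548 for DREB3 (limma). PTI4, named for its interaction with the resistance kinase Pto, fell by 0.70 on the log2 scale, with 9.48, 9.46 and 10.04 in leaf Cd arrays, against 10.32, 10.33 and 10.42 in controls (adjusted p 0.0348, limma). The PTI4 call was lost without any of the arrays other than leaf Cd 3, with adjusted p-values of 0.0696 to 0.115.

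Genes of superoxide dismutases and copper chaperones moved in both directions. Of 5 superoxide dismutase and copper chaperone genes, 2 fell and 1 rose, with a median of -0.63. SODCP.2, which encodes a copper/zinc superoxide dismutase of the chloroplast, had 7.26, 7.42 and 7.66 in leaf Cd arrays, against 11.23, 11.33 and 10.97 in controls. The groups were far apart and the arrays of each group lay close together, with a difference of -3.73 ± 0.20 on the log2 scale (adjusted p 1.48e-05, limma). CCS, the chaperone that delivers copper to copper/zinc superoxide dismutase, had 8.28, 8.82 and 8.77 with Cd, against 9.56, 9.52 and 9.31 in controls, and fell by 0.84 on the log2 scale (SE 0.16, adjusted p 0.0153, limma). CCH, a small copper chaperone of the ATX1 type, went the other way with 11.13, 11.01 and 11.08 in leaf Cd arrays, against 10.50, 10.20 and 10.36 in controls, a rise of 0.72 ± 0.11 (adjusted p 0.00733, limma).

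The cytosolic copper/zinc enzyme SODCC.1 had 11.39, 10.84 and 11.33 with Cd, against 11.88, 11.73 and 11.84 in controls. Its values did not overlap, and its difference of -0.63 ± 0.16 had an adjusted p of 0.0561 (limma). The iron enzyme FESOD had 9.76, 8.99 and 9.22 with Cd, against 10.28, 9.73 and 9.72 in controls, with overlapping groups (-0.58 ± 0.28, adjusted p 0.288, limma). A second FESOD probe set, of similar level, went the other way, with a mean of 9.46 with Cd, against 7.92 in controls (1.54, adjusted p 0.0537, limma), so the probe sets of this gene disagree. The call of CCS was lost without control array 2, with an adjusted p of 0.0722. With the 6 leaf arrays alone the adjusted p of CCH was 0.0877, and that of CCS was 0.117.

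None of the 10 catalase, ascorbate peroxidase and glutathione peroxidase genes passed the threshold in the unpaired fit, and their median was -0.12. APX2, an ascorbate peroxidase, had 9.87, 8.52 and 9.99 in leaf Cd arrays, against 10.60, 10.27 and 10.77 in controls, and the groups did not overlap. Its difference of -1.09 ± 0.32 had an adjusted p of 0.0923 (limma), and 0.0443 with arrays paired by number. CAT2, a catalase, had 11.12, 10.78 and 10.91 with Cd, against 11.35, 11.17 and 11.09 in controls (-0.27 ± 0.15, adjusted p 0.355, limma).

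Of 8 heat shock genes 4 passed the threshold, where 3.78% of all probe sets did, and the list median was 0.56. Of these 4, 3 were small heat shock proteins, chaperones that bind unfolding proteins. HSP17.4 had 5.80, 6.67 and 6.85 in leaf Cd arrays, against 3.69, 3.09 and 3.58 in controls, a 7.92-fold rise (2.99 ± 0.57, adjusted p 0.0187, limma). The mitochondrial MTSHP had 7.13, 7.03 and 7.48 with Cd, against 5.15, 4.82 and 5.12 in controls, a 4.55-fold rise (adjusted p 0.00639, limma). ER-SHSP, of the endoplasmic reticulum, had 5.68, 5.32 and 5.45 with Cd, against 3.65, 3.20 and 3.50 in controls, a 4.11-fold rise (adjusted p 0.0131, limma). In these 3 genes every Cd array lay more than 1 log2 unit above every control array.

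The plastid protein HSP21 had 5.64, 4.81 and 5.75 in leaf Cd arrays, against 5.22, 4.83 and 5.73 in controls. The groups overlapped fully, and the difference was 0.14 ± 0.61 (adjusted p 0.937, limma). HSP17-6 (0.32, adjusted p 0.480, limma) and vis1 (0.80, adjusted p 0.106, limma) did not pass the threshold either. Hsp90-1, a member of the HSP90 chaperone family, was the one that fell, with 9.01, 9.27 and 9.46 with Cd, against 9.88, 10.03 and 10.58 in controls (-0.91 ± 0.21, adjusted p 0.0393, limma). HSC80, another HSP90, had 11.82, 11.97 and 11.70 with Cd, against 11.54, 11.73 and 11.76 in controls (adjusted p 0.517, limma). Calls were lost without control array 2 for ER-SHSP (0.0635) and HSP17.4 (0.0807), without control array 3 for HSP17.4 (0.0551), and without any of 4 arrays for Hsp90-1, at 0.0687 to 0.120. MTSHP kept its call without any single leaf array.

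Of 5 iron and metal transport genes, 1 rose. NRAMP3, a divalent metal transporter of the NRAMP family, had 10.70, 11.20 and 10.81 in leaf Cd arrays, against 9.70, 9.72 and 9.63 in controls, a 2.33-fold rise (1.22 ± 0.14, adjusted p 0.00114, limma). The control values lay close together and all Cd values stood above them. Nramp2 had 6.32, 5.59 and 5.95 with Cd, against 6.48, 6.67 and 6.49 in controls (-0.59 ± 0.16, adjusted p 0.0795, limma). NRAMP1 was not above background on any leaf array, and FER, the transcription factor of root iron uptake, was not above it on any leaf control array.

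Among 10 genes of glutathione synthesis, glutathione S-transferases and metallothioneins, 1 rose and the median was 0.10. That gene, ctu1, is a tau-class glutathione S-transferase, an enzyme that conjugates glutathione to its substrates. It had 8.0, 8.23 and 8.23 in leaf Cd arrays, against 6.84, 6.84 and 7.54 in controls, a 2.12-fold rise (adjusted p 0.0205, limma). GSH1, glutamate-cysteine ligase, had 9.03, 8.82 and 8.34 with Cd, against 9.31, 9.07 and 8.99 in controls (-0.39 ± 0.20, adjusted p 0.315, limma). MT2, a metallothionein, spread widely within groups, with 8.80, 3.90 and 6.17 with Cd, against 6.03, 4.69 and 6.64 in controls (adjusted p 0.832, limma). The ctu1 call was lost without control array 1 (0.0569) or control array 2 (0.0909).

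None of 7 genes of sulfate uptake and sulfur amino acid synthesis passed the threshold. ST3 was added to this list by hand, and whether it encodes a sulfate transporter was not checked. It had 9.95, 9.41 and 9.57 in leaf Cd arrays, against 8.82, 8.75 and 8.44 in controls, without overlap (0.97 ± 0.25, adjusted p 0.0595, limma). Its values are therefore not read as a change in sulfate uptake.

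**Figure D2:**
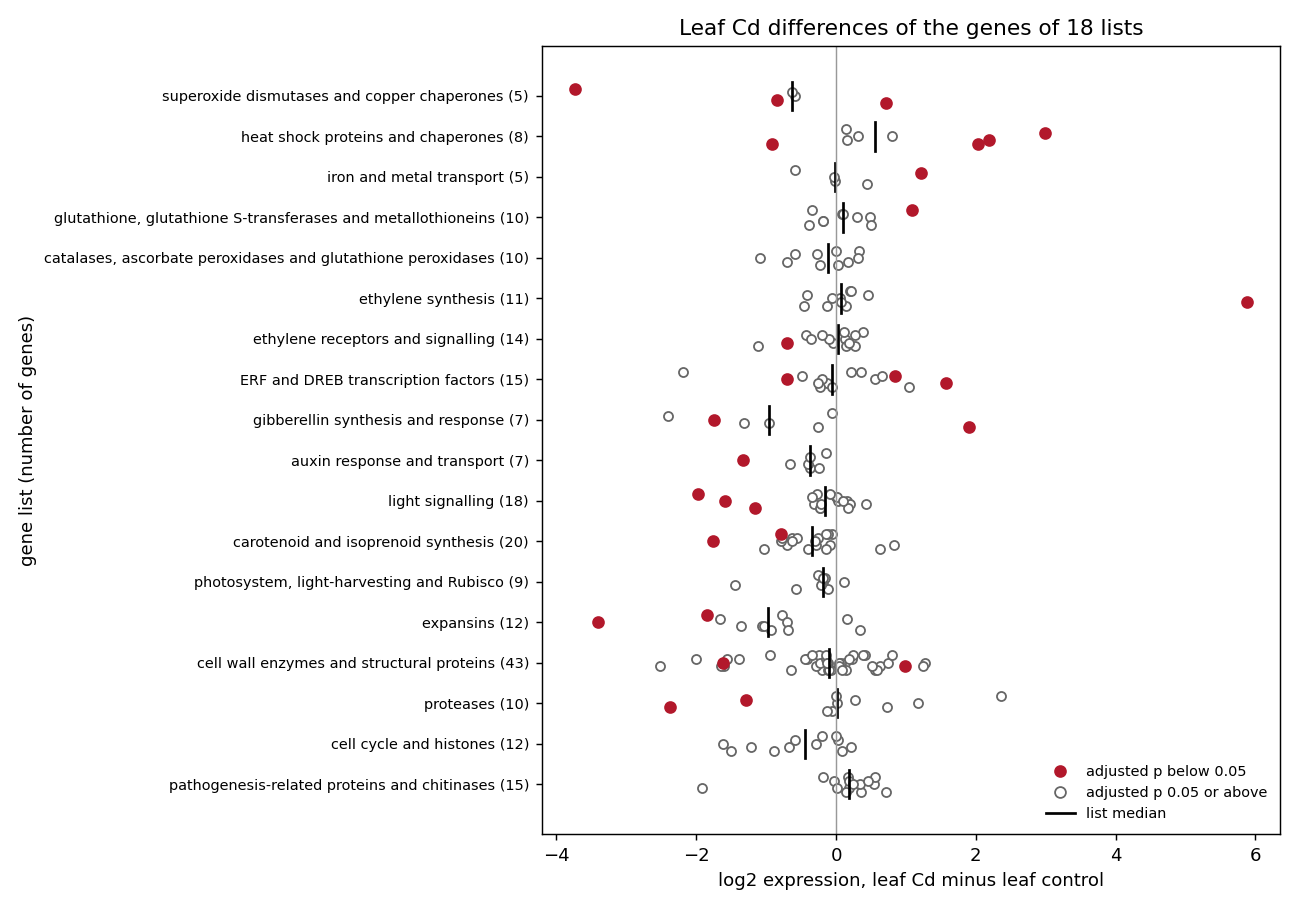
Difference in log2 expression (leaf Cd minus leaf control, horizontal axis) of every gene of 18 lists (1 line each, number of genes in brackets); filled red dots passed an adjusted p of 0.05, open dots did not, and black bars are list medians. Expansins have a median of -0.98 and 2 falls, and ACO5 stands alone at the right among ethylene synthesis genes.

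Of 7 genes of gibberellin synthesis and response, 1 rose and 1 fell, while 6 had differences below 0 and the median was -0.97. The gene 20ox-2, a gibberellin 20-oxidase, rose to 4.20, 5.23 and 4.45 in leaf Cd arrays, against 2.42, 3.19 and 2.57 in controls (1.90 ± 0.36, adjusted p 0.0174, limma). The gibberellin 3-oxidase 3OH-2, which makes the active hormone, fell to 5.50, 6.72 and 6.20 with Cd, against 7.48, 8.04 and 8.14 in controls (-1.74 ± 0.30, adjusted p 0.0119, limma). Neither gene's groups overlapped. Control arrays 1 and 3 of 20ox-2 were not above background (2.82 and 2.94), so its difference rests in part on values at the floor. GA20OX1, a further 20-oxidase, had 3.19, 5.66 and 6.48 with Cd, against 7.74, 7.71 and 7.11 in controls, where the Cd arrays differed widely among themselves (adjusted p 0.0709, limma). The call of 20ox-2 was lost without control array 3 (0.0631), and that of 3OH-2 without control array 2 (0.0575).

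All 7 auxin response genes had differences below 0, with a median of -0.38, against 46.8% of all probe sets below 0. Only IAA17, an Aux/IAA repressor of auxin responses, passed the threshold. It had 5.10, 5.58 and 6.30 with Cd, against 6.58, 7.49 and 6.92 in controls (-1.34 ± 0.30, adjusted p 0.0348, limma), and its second probe set gave -0.62 with an adjusted p of 0.137. The IAA17 call was lost without any of control arrays 2 and 3 and leaf Cd arrays 1 and 2, at 0.0725 to 0.149.

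Of 18 light signalling genes, 3 fell and none rose, and the median was -0.15. HY5, the bZIP factor that promotes light-dependent development, had 5.54, 4.79 and 5.55 in leaf Cd arrays, against 6.92, 6.66 and 7.07 in controls (-1.59 ± 0.22, adjusted p 0.00373, limma). CO1, of the CONSTANS family, had 3.81, 3.95 and 3.10 with Cd, against 5.46, 5.91 and 5.41 in controls (-1.97 ± 0.31, adjusted p 0.00722, limma). CIP1, named for interaction with the light signalling repressor COP1, had 8.87, 8.82 and 9.08 with Cd, against 10.09, 10.16 and 9.98 in controls (-1.15 ± 0.12, adjusted p 0.000923, limma). Each control array of these 3 genes lay above each Cd array, and both probe sets of CIP1 fell. COP1 itself had 8.08, 8.30 and 7.15 with Cd, against 8.10, 8.21 and 7.93 in controls, and the photoreceptor gene PHYA had 7.74, 7.70 and 6.59 with Cd, against 7.65, 7.79 and 7.63 in controls. Leaf Cd array 3 was the low one in both. CO1 kept its call under every setting tried, whereas HY5 lost it with the 6 leaf arrays alone (0.0549) and with those paired by number (0.0605), and CIP1 with those paired by number (0.0712).

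Carotenoid and isoprenoid synthesis had 2 falls among 20 genes, 18 differences below 0 and a median of -0.35. PSY2, the phytoene synthase known for its role in green tissue, had 6.34, 6.07 and 6.32 in leaf Cd arrays, against 8.0, 8.24 and 7.78 in controls, a 3.40-fold lower level with Cd (adjusted p 0.000385, limma). LCY1, lycopene beta-cyclase, had 9.02, 8.46 and 8.90 with Cd, against 9.71, 9.60 and 9.43 in controls (-0.78 ± 0.16, adjusted p 0.0257, limma). With arrays paired by number, where 3.75% of all probe sets passed (1.64% higher and 2.1% lower), the list had 4 falls, the added ones being CRTL-E-1 (0.0387) and DXS (0.0479), the first enzyme of the plastid isoprenoid pathway. The LCY1 call was lost without any of 4 arrays, at 0.0519 to 0.0972.

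None of 9 photosystem, light-harvesting and Rubisco genes passed the threshold, although 8 had differences below 0, with a median of -0.19. CAB5, a chlorophyll a/b-binding protein, had 8.81, 9.71 and 10.25 in leaf Cd arrays, against 11.01, 11.35 and 10.76 in controls, without overlap (-1.45 ± 0.74, adjusted p 0.322, limma). CAB4 had 11.53, 11.88 and 12.15 with Cd, against 12.44, 12.43 and 12.41 in controls (-0.57 ± 0.45, adjusted p 0.543, limma). Like every standard error given here, theirs come from a spread shared with the root arrays.

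Expansins loosen cell walls during growth, and of 12 expansin genes 2 fell, 10 had differences below 0 and the median was -0.98. EXP2 had 5.19, 7.20 and 6.19 in leaf Cd arrays, against 9.66, 9.90 and 9.22 in controls, a 10.6-fold lower level with Cd (-3.40 ± 0.42, adjusted p 0.00198, limma). The Cd arrays of EXP2 differed by more among themselves than the controls did, yet none reached a control value. The gene exp11 had 6.97, 7.51 and 7.97 with Cd, against 9.09, 9.54 and 9.37 in controls (-1.85 ± 0.43, adjusted p 0.0409, limma). EXP5 had 6.25, 6.74 and 8.51 with Cd, against 8.11, 8.91 and 9.43 in controls, with overlap (adjusted p 0.270, limma). The exp11 call was lost without any of the arrays other than leaf Cd 3, at 0.0651 to 0.155.

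Of 43 cell wall genes, 1 rose and 1 fell in the unpaired fit, which is 4.65%, near the 3.78% of all probe sets. With arrays paired by number 2 rose and 3 fell, where 1.64% of all probe sets rose and 2.1% fell. PMEU1, a pectin methylesterase, averaged 11.18 ± 0.21 in leaf Cd arrays and 10.19 ± 0.08 in controls (SD, n = 3 each), without overlap, a 1.98-fold rise (adjusted p 0.0224, limma). TBG6, a beta-galactosidase, had 5.24, 6.09 and 5.93 with Cd, against 6.95, 7.60 and 7.58 in controls, a 3.07-fold lower level with Cd (adjusted p 0.0160, limma). XTH7, a xyloglucan endotransglucosylase/hydrolase, had 4.44, 6.48 and 7.70 with Cd, against 7.85, 9.32 and 9.0 in controls (-2.52 ± 0.65, adjusted p 0.0580, and 0.0193 paired). In XTH7 each Cd array lay below the control array of the same number. Both calls depend on single arrays. PMEU1 lost its call without any of 4 arrays, at 0.0523 to 0.0772, and TBG6 without control array 2 (0.0742) or 3 (0.0621).

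Cell cycle genes gave no call among 12 in the unpaired fit and 4 falls in the paired one, where 2.1% of all probe sets fell. CDKB2, a B-type cyclin-dependent kinase of dividing cells, had 4.46, 4.74 and 7.26 in leaf Cd arrays, against 5.90, 6.77 and 8.65 in controls (adjusted p 0.270 unpaired and 0.0115 paired, limma). CycA1, an A-type cyclin, had 3.77, 4.50 and 5.84 with Cd, against 5.09, 6.11 and 7.40 in controls (0.187 unpaired and 0.00991 paired). PCNA, the sliding clamp of DNA replication, had 6.66, 7.0 and 8.44 with Cd, against 7.39, 7.86 and 9.51 in controls (0.457 unpaired and 0.0209 paired). In each of these genes array 3 was the highest of its group, the groups overlapped, and each Cd array lay below the control array of its number. CycA2 followed, with 3.21, 5.25 and 4.70 with Cd, against 4.52, 5.88 and 6.44 in controls (0.0445 paired). The labels do not say that arrays of the same number belong together, so these paired calls depend on that assumption.

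**Figure D3:**
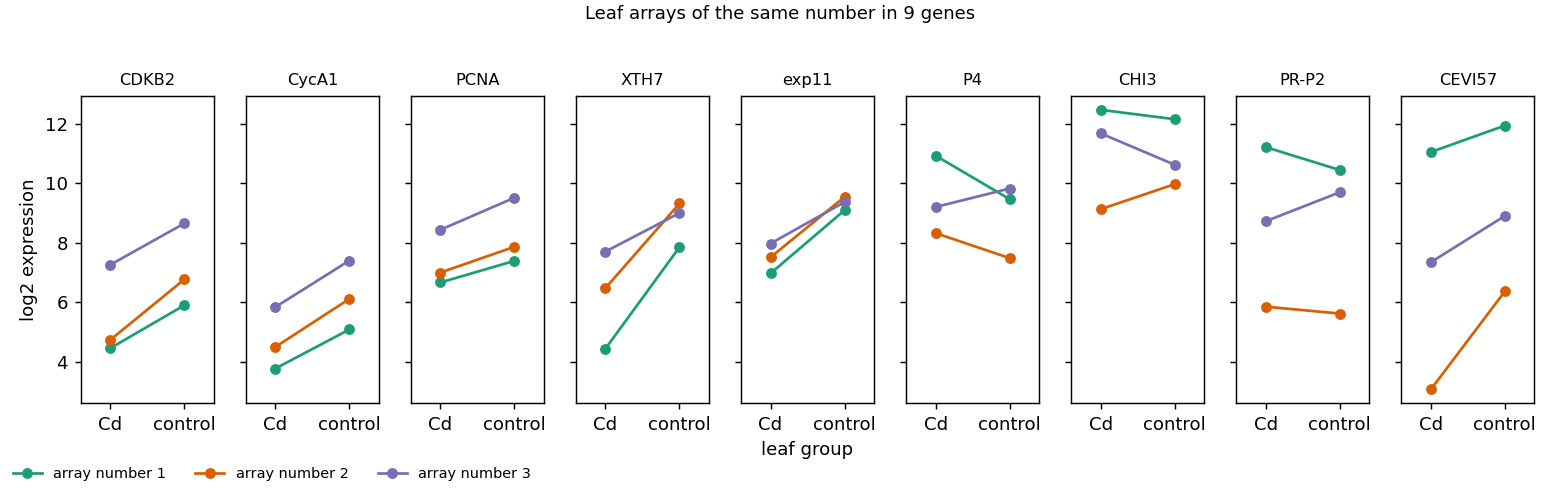
Log2 expression (vertical axis) of 9 genes in leaf Cd and leaf control arrays, with lines joining arrays of the same number. CDKB2, CycA1, PCNA, XTH7, exp11 and CEVI57 are lower with Cd in all 3 pairs, whereas P4, CHI3 and PR-P2 have no common direction.

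None of 15 genes of pathogenesis-related proteins and chitinases passed the threshold, paired or not, and their median was 0.19. PR-P2 had 11.21, 5.85 and 8.72 in leaf Cd arrays, against 10.44, 5.62 and 9.70 in controls (0.01 ± 1.53, adjusted p 0.999, limma). CHI3, a chitinase, had 12.47, 9.13 and 11.68 with Cd, against 12.15, 9.97 and 10.62 in controls (adjusted p 0.943, limma). CEVI57 had 11.05, 3.07 and 7.35 with Cd, against 11.94, 6.37 and 8.90 in controls (-1.91 ± 1.91, adjusted p 0.650, limma). In these 3 genes array 1 was the highest and array 2 the lowest of both groups. Whether this spread affected other results was not tested.

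Both protease genes past the threshold are subtilases, serine proteases secreted to the cell wall, and both fell. SBT2 had 3.84, 4.78 and 4.72 in leaf Cd arrays, against 6.62, 7.13 and 6.71 in controls, a 5.17-fold lower level with Cd (adjusted p 0.00429, limma). The gene sbt3 had 9.19, 8.23 and 8.43 with Cd, against 9.77, 10.24 and 9.68 in controls (-1.28 ± 0.23, adjusted p 0.0138, limma). Of the same list of 10, P69B had 7.56, 7.19 and 6.56 with Cd, against 4.41, 3.15 and 6.66 in controls, where control array 3 alone reached the Cd level (2.36 ± 1.01, adjusted p 0.230, limma). The sbt3 call was lost without control array 2 (0.0642).

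ADH2, an alcohol dehydrogenase of fermentation, rose to 6.61, 7.15 and 7.49 in leaf Cd arrays, against 3.39, 5.01 and 5.38 in controls (2.49 ± 0.42, adjusted p 0.0107, limma). It was the only one of 10 fermentation and malate genes past the threshold. The ADH2 difference was 1.89 without control array 1, and its adjusted p was 0.102 with the 6 leaf arrays alone. The potassium channel gene LKT1 had 5.75, 5.43 and 5.04 with Cd, against 4.47, 3.93 and 4.58 in controls (1.08 ± 0.24, adjusted p 0.0342, and 0.0673 paired, limma). Of 8 phospholipid signalling genes, 2 rose. The phospholipase D gene PLDa2 had 4.60, 4.32 and 4.19 with Cd, against 3.78, 3.12 and 3.64 in controls (0.85 ± 0.21, adjusted p 0.0493, and 0.0804 paired). DGK1, a diacylglycerol kinase, had 5.93, 5.46 and 5.22 with Cd, against 4.64, 4.48 and 4.95 in controls (0.84 ± 0.21, adjusted p 0.0495, and 0.0982 paired). The groups of all 4 genes were apart, but those of PLDa2, DGK1 and LKT1 were apart by little. Each of these 3 lost its call without 4 or 5 of the 6 arrays left out singly, with adjusted p-values up to 0.188 for PLDa2, 0.197 for DGK1 and 0.148 for LKT1. LAT61, first described from anthers, fell to 8.20, 6.57 and 6.90 with Cd, against 8.74, 8.91 and 8.75 in controls (adjusted p 0.0236, limma), and 0.0946 without control array 2, the highest of 5 such losses.

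Several rises belong to genes known here only by a locus number. LOC544282 had 7.31, 7.87 and 8.08 in leaf Cd arrays, against 3.97, 3.51 and 3.82 in controls, a 15.8-fold rise (adjusted p 0.00460, limma). LOC543598 had 5.22, 7.69 and 6.08 with Cd, against 2.96, 2.96 and 2.91 in controls (3.39 ± 0.76, adjusted p 0.0333, and 0.0839 paired). In control array 3 it was not above the background of 2.94. LOC544070 had 9.68, 10.23 and 9.90 with Cd, against 8.06, 7.24 and 7.45 in controls, a 5.11-fold rise (adjusted p 0.00105, limma). None of the 3 overlapped, and both probe sets of LOC544070 rose. All 3 probe sets of LOC543511 rose, and the brightest had 11.27, 10.75 and 11.74 with Cd, against 10.39, 10.33 and 9.50 in controls (adjusted p 0.0483, and 0.110 paired). The calls of LOC543598 and LOC543511 were lost without any of 5 arrays, at up to 0.112 and 0.138, and the difference of LOC543598 was 2.71 without leaf Cd array 2.

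The leaf response was set against that of the roots, where 304 probe sets passed the threshold (3.03%). The probe sets past it in both organs numbered 44, which is 11.6% of the leaf and 14.5% of the root calls, and 38 of them had the same direction. Among named genes 9 passed in both organs, all in the same direction. The rises were MTSHP and PMEU1, and the falls were SODCP.2, PSY2, LCY1, HY5, CO1, CIP1 and 3OH-2. CO1 differed by -1.97 in leaf and -2.09 in root, and 3OH-2 by -1.74 in leaf and -1.67 in root.

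**Figure D4:**
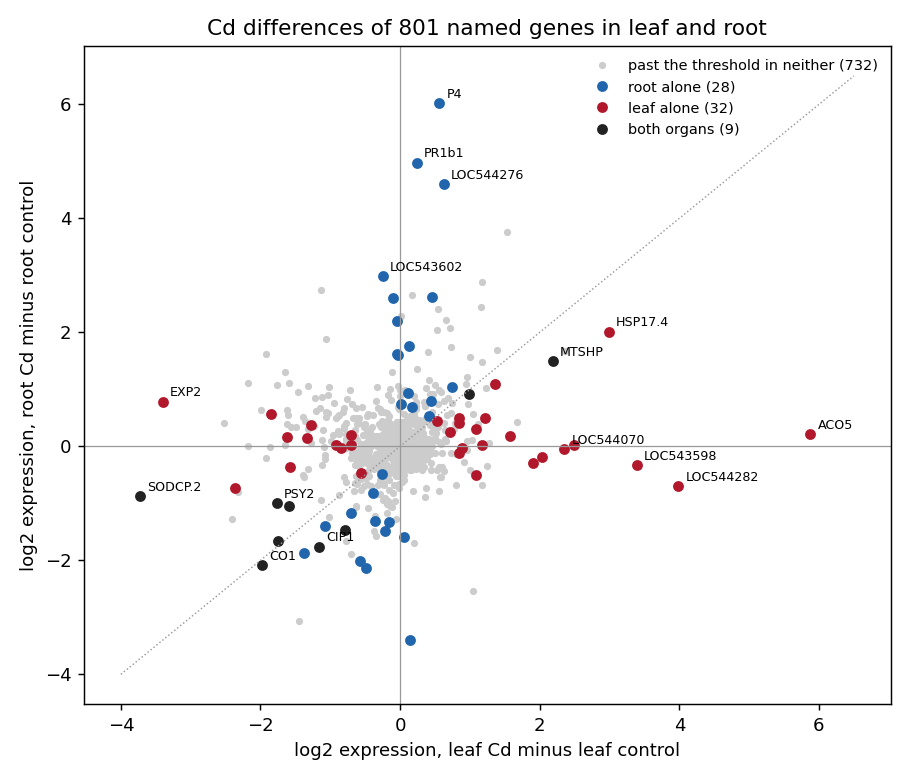
Difference in log2 expression, Cd minus control, in leaf (horizontal axis) and root (vertical axis) for 801 named genes; the dotted line marks equal differences. Of these genes 9 passed the threshold in both organs (black), 32 in leaf alone (red) and 28 in root alone (blue). This split is by threshold and is not a test of a difference between organs.

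The difference between the responses of the organs was tested in the same fit, and 76 probe sets passed (0.757%). In 53 of them the signed response in leaf minus that in root was above 0 (0.528%). This includes falls in root without a leaf call, such as ACO6 (0.05 in leaf and -1.59 in root). ACO5 had 12.18, 11.31 and 12.42 in root Cd arrays, against 11.58, 12.31 and 11.39 in root controls. Its leaf Cd values of 7.80 to 9.08 lay below all of these. Because its leaf controls were not above background, its response was larger in leaf by at least 5.44 on the log2 scale (adjusted p 0.00124, limma). EXP2 had 6.98, 7.59 and 6.58 in root Cd arrays, against 6.38, 6.22 and 6.19 in root controls, and its response in leaf minus that in root was -4.19 ± 0.60 (adjusted p 0.0133, limma). SODCP.2 had 7.03, 6.54 and 7.40 in root Cd arrays, against 7.83, 7.84 and 7.91 in root controls, and its response in leaf minus that in root was -2.86 ± 0.28 (adjusted p 0.00159, limma). Levels were not adjusted for the higher array medians of the root arrays. The 9 genes that passed in both organs, other than SODCP.2, did not pass the test of the difference. Of the 379 leaf probe sets, 46 passed that test. A call in leaf without one in root is therefore not by itself a difference between organs.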

How the data were processed

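Each deposited value is a log2 expression level of 1 probe set on 1 array. Per the submitters' processing notes the authors used MAS5 and RMA, with no version or role given. Values were used as deposited, without the 171 control probe sets. Group means of all 12 arrays were estimated by a linear model in limma 3.58.1, under R 4.3.3 (prior degrees of freedom 2.84, residual 8), tested two-sided and adjusted by the Benjamini-Hochberg method over 10038 probe sets at 0.05. Tables and plots used Python 3.11.15, pandas 2.3.3 and matplotlib 3.10.9. Background was the highest of 23 negative control probe sets per array. A gene at or below it on all 3 arrays of a group has a fold given as a bound, against the higher of background and its own value.

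Symbols came from the array's 2007 annotation (909 probe sets), with synonyms from a current gene table. A gene with several probe sets was represented by the one of highest mean level across the 12 arrays, and PRO1, shared by 2 records, was left out. The genes named are, among those past the threshold, the 15 largest rises and 15 largest falls without overlap, all list members past the threshold with up to 4 others per list, the 10 largest differences between the organs' responses and up to 4 unnamed probe sets. Not every gene so chosen is described, and some genes outside the rule were named after their values were seen. The members and lists were chosen with earlier results of these data known. Several lists hold members added by hand to those matched by fixed name patterns. Patterns matched 10 of the carotenoid list of 20, 32 for the cell wall list of 43 and 15 for the light signalling list of 18. They matched 5 for the sulfate list of 7, and 0 for the eIF-5A list of 4. Members of the malate and jasmonate lists were added, and 4 genes matched by name only were taken out of lists, after values had been seen.

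Deviations from group means of same-numbered leaf Cd and control arrays correlated at 0.35, 0.42 and 0.12, and those of unlike number at -0.46 to 0.07. The labels state no pairing. Array numbers were tried as pairs as an alternative, and these correlations come from the same data, so they do not establish pairs. Root correlations were 0.00, -0.26 and 0.06 for the same number, whereas root Cd array 1 and root control array 2 reached 0.41. The paired fit has a term for each number within each organ. On simulated leaf data of 10038 probe sets, 63 of 100 changes of 1 and 99 of 100 changes of 2 on the log2 scale were recovered. There were 6 false calls among the unchanged probe sets. The simulated noise was independent and had the same spread in every group, whereas the leaf Cd arrays correlated less with each other than the leaf controls did. These figures hold for that setting only. Sequences were not used here.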

Additional observations from a re-analysis of the deposited data

Results flagged for a closer look

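For 10 named genes the Cd response passed a test of the difference between leaf and root (limma, adjusted over 10038 probe sets). Adjusted p-values ran from 0.00124 for ACO5 to 0.0477 for sbt3 (limma). Of the 76 probe sets past this test, 27 still passed without control array 2 and 25 without control array 3. The response in leaf minus that in root was fitted as 5.67 for ACO5, whose leaf controls were not above background, so that it is given as at least 5.44. It was 4.69 for LOC544282, 2.41 for LOC544070 and 1.64 for ACO6, a further ACC oxidase. It was -4.19 for EXP2, -3.97 for LOC544276, -3.24 for LOC543602, -2.86 for SODCP.2, -1.67 for LOC543717 and -1.66 for sbt3.

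In 4 of the 10 the difference comes with a root call and no leaf call. LOC544276 (synonym ICL) had 10.37, 10.09 and 9.95 in leaf Cd arrays, against 9.15, 10.11 and 9.27 in leaf controls, while root Cd arrays averaged 9.78 and root controls 5.18. LOC543602 (synonym Eli3) averaged 8.55 in root Cd arrays, against 5.56 in root controls, and LOC543717 (synonym TSB) averaged 8.10 in root Cd arrays, against 6.48 in root controls. ACO6 averaged 6.94 in root Cd arrays, against 8.52 in root controls, and differed by 0.05 in leaf.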

How the results depend on the processing

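The number of leaf probe sets past the threshold was 379, and 65 with the 6 leaf arrays alone (63 of them among the 379), 29 with those paired by number, and 127 to 589 with 1 array left out. With the replicate block over 12 arrays it was 376, of which 258 were shared, with 165 higher and 211 lower. Array centring gave 260 higher and 150 lower, and array weights gave 283 higher and 264 lower. The difference between organs was passed by 76 probe sets, and by 705 with array weights and 26 to 160 with 1 leaf array left out, with 28 without control array 2, 26 without control array 3, 50 without leaf Cd array 2 and 160 without leaf Cd array 3. Of 41 named genes called, the paired fit kept 32, lost 9 and added 21. Beside those given above it lost t19-8 (0.0695), LOC543833 (0.0835) and LePCL1 (0.0520). It changed no other call of a gene described above. Of 38 called genes compared under every setting, 6 kept their call throughout (ACO5, LOC544282, MTSHP, SODCP.2, SBT2 and CO1), 25 lost it with the leaf arrays alone, and 0 turned direction. Leaving out control array 2 lost 21 of the 38.

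Of 162 uncalled genes, 38 passed the threshold under at least 1 other setting, so a list with none past it in the unpaired fit can have members past it elsewhere. Those whose difference turned sign with 1 array left out are given with their lowest and highest values. They were HSP21 -0.073 to 0.44, MT2 -0.75 to 1.70, LOC543607 -0.76 to 0.028, NRAMP1 -0.15 to 0.067, FRO1 -0.42 to 0.39 and ACS1A -0.14 to 0.87. Next came ETR6 -0.86 to 0.096, PTI5 -0.33 to 1.5, TAS14 -1.16 to 1.58, IAA2 -0.88 to 0.12, PHYA -0.55 to 0.032 and pip1 -0.22 to 2.0. Then came CEVI57 -3.86 to 0.13, P4 -0.16 to 1.14, PLDb2 -0.49 to 0.043, CHS1 -0.21 to 1.32, RPL3 -0.11 to 0.015 and RPS25 -0.11 to 0.062. Further ones were RPL8 -0.13 to 0.092, LOC543885 -0.096 to 0.65, ext1 -0.28 to 0.012, PT2 -0.16 to 0.075, ACS2 -0.60 to 0.71 and PRK2 -0.11 to 0.032. Others were ARPI -2.14 to 0.17, TFT6 -0.54 to 0.044, AAP2 -0.088 to 0.37, AAP1 -0.22 to 0.37, ltpg1 -0.37 to 0.10 and RNALE -0.85 to 0.85. The remaining ones were LOC543602 -0.49 to 0.081, LOC543717 -0.14 to 0.090 and ACO6 -0.0067 to 0.11. Under other settings FRO1 turned to 0.21 with array weights and 0.0056 with centring, PT2 to 0.0045 with centring, RNALE to 0.13 with array weights, LOC543717 to 0.016 with quantile normalization, and ACO6 to -0.21 with its brightest leaf probe set. None of these passed the threshold in either case. The cause of the changes was not tested.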

Other observations

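The probe set without a symbol that rose most had 8.07, 7.82 and 6.18 in leaf Cd arrays, against 2.78, 3.38 and 2.30 in leaf controls (adjusted p 0.000465, limma). It was above background on 1 of the 3 leaf control arrays. Its root values were 12.51, 12.56 and 12.50 with Cd, against 11.81, 12.06 and 11.67 in controls. Another, one of the 2 that fell most among probe sets without a symbol, had 4.91, 4.88 and 7.15 in leaf Cd arrays, against 9.36, 8.78 and 8.76 in leaf controls (adjusted p 0.0160, limma). The other of the 2 had 2.78, 4.21 and 4.26 in leaf Cd arrays, against 5.11, 9.59 and 8.84 in leaf controls, where control array 1 lay closest to the Cd arrays.

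All 4 genes of the translation factor eIF-5A had a Cd value above the control value in all 3 pairs, as did 23.7% of all probe sets, with none past the threshold. The difference was 0.29 ± 0.11 for eIF-5A1 (adjusted p 0.174, limma) and 0.13 ± 0.12 for eIF-5A3 (adjusted p 0.631). Among 6 WRKY factors none passed, and 3 rose without leaf Cd array 3, where 3.17% of all probe sets rose. WRKYIId-4 had 7.98, 8.21 and 7.66 in leaf Cd arrays, against 7.0, 7.24 and 7.37 in controls (0.75 ± 0.20, adjusted p 0.0663, limma).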
